A study of Ovis aries with 19 samples.

Results

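The hepatokines are proteins that liver cells release into the blood and that act on other tissues. The 8 genes described here were FGF21, ANGPTL4, AHSG, FETUB, LECT2, GDF15, RBP4 and AGT, found by name among the 28524 gene identifiers of the deposited table. All 8 were present and all 8 passed the filter on low values in liver, a mean normalized read count of at least 10, while 3 passed it in muscle.

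RNA was sequenced from liver and muscle of 10 female sheep. Control sheep were compared with sheep given testosterone before birth, which the labels call prenatal T-treatment and the series title calls prenatal testosterone excess. Liver libraries came from 4 control sheep (98, 131, 179 and 201) and 5 treated sheep (48, 63, 185, 233 and 255), and muscle libraries came from 5 control sheep (the same 4 and sheep 132) and the same 5 treated sheep. Each replicate was a separate animal, and the testosterone dose, the age at tissue collection and the muscle sampled are not given in the sources used here.

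Liver hormones tie the state of the liver to the metabolism of other organs. FGF21 is made in the liver under control of the fatty acid receptor PPARA and of stress factors, and it acts on cells that carry an FGF receptor together with the co-receptor KLB. ANGPTL4 blocks lipoprotein lipase and so limits the uptake of blood triglyceride by tissues, and it is made by liver, fat and muscle. AHSG and FETUB are the fetuins, plasma proteins of the cystatin superfamily, of which AHSG can inhibit the insulin receptor. LECT2 is a secreted chemotactic protein linked to insulin resistance in muscle, GDF15 is a stress hormone that acts on the brain through GFRAL, RBP4 carries retinol in the blood together with TTR, and AGT is the precursor of the angiotensins.

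Liver libraries held 10236610 to 16046301 reads and muscle libraries 8455563 to 14331578. The tissue labels matched the markers, since the summed normalized read count of 9 hepatocyte markers did not go under 883133 in liver or over 176 in muscle. Sheep 201 stood apart among the livers, with reads in 20704 genes against 16852 to 18289 in the other 8. Without sheep 201 the log2 fold changes in liver, given with all sheep further on, were -2.71 for FGF21, -0.52 for ANGPTL4, -0.031 for AHSG, -1.64 for FETUB, -0.77 for LECT2, 0.82 for GDF15, 0.12 for RBP4 and -0.35 for AGT.

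In liver none of the 8 genes passed the test of treated against control sheep. The test was limma on log2(normalized read count + 1) with Benjamini-Hochberg adjustment over 13640 genes at a threshold of 0.05, and 0.00733% of all genes passed it. At an unadjusted p under 0.05 limma gave 1 of the 8, FGF21, against 3.99% of all genes. That count was 3 without control sheep 179, 2 without control sheep 131 or treated sheep 185, and 3 with array weights. The share of all genes at that p in these runs is not given here, so these counts show no change particular to the members. By edgeR 0 of the 8 passed, beside 0.00733% of all genes, and by DESeq2 0 passed, beside 0.235%. With both tools FGF21 and ANGPTL4 had an unadjusted p under 0.05, against 4.25% of all genes by edgeR and 5.04% by DESeq2. The groups overlapped for each of the 8 genes, where 1.54% of all liver genes had groups that did not overlap. The median log2 fold change of the 8 genes was -0.46, with 6 below 0, beside a median of 0.0032 over all genes tested.

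**Figure D1:**
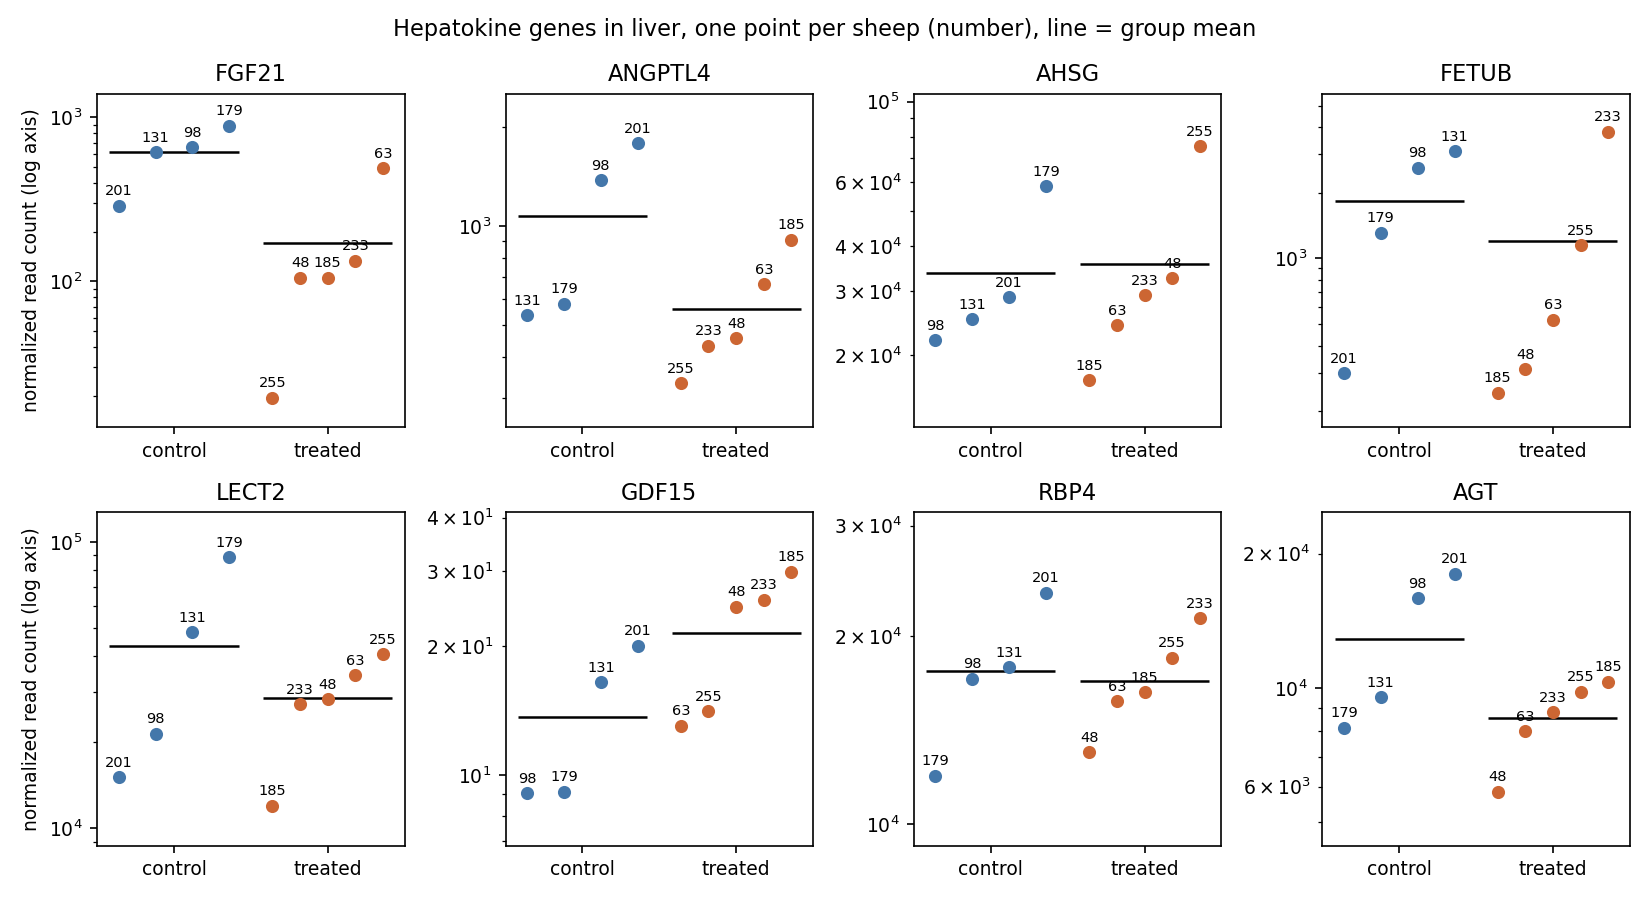
Normalized read count of each of the 8 genes in liver on a log axis, with 1 point per sheep labelled by its number, control sheep in blue, treated sheep in orange, and the group mean as a line. For FGF21, 4 of 5 treated sheep lie below the lowest control sheep (289) and treated sheep 63 lies at 488.

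FGF21, the fasting hormone, showed the largest difference of the 8. Its normalized read count in control liver was 660.2 in sheep 98, 614.02 in sheep 131, 889 in sheep 179 and 289 in sheep 201. In treated liver it was 105 in sheep 48, 488 in sheep 63, 105 in sheep 185, 134 in sheep 233 and 19.5 in sheep 255. Treated sheep 63 was alone in reaching the control range, and the other 4 lay below the lowest control. Controls averaged 613 ± 247 (SD, n = 4) and treated sheep 170.2 ± 183 (SD, n = 5), a ratio of 3.60 between the means. The log2 fold change was -2.39 ± 0.69 (SE), with a 95% interval from -3.90 to -0.88, an unadjusted p of 0.00479 and an adjusted p of 0.865 by limma. DESeq2 gave an adjusted p of 0.298 and edgeR 0.887. Without treated sheep 63 the treated mean was 90.8, and without treated sheep 255 the log2 fold change was -1.79. The spread within groups was wide, with a residual SD of 1.31 on the log2 scale that exceeded that of 96.8% of the genes tested.

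ANGPTL4, the lipase inhibitor, had 1380 in sheep 98, 536 in sheep 131, 580 in sheep 179 and 1787 in sheep 201 among the controls. Treated sheep had 456 (sheep 48), 665 (sheep 63), 908 (sheep 185), 432 (sheep 233) and 333 (sheep 255). Each treated sheep lay below the control mean, but control sheep 131 and 179 lay inside the treated range and only control sheep 98 and 201 stood above it. Controls averaged 1071 ± 616 (SD, n = 4) and treated sheep 559 ± 229 (SD, n = 5). Their log2 fold change was -0.83 ± 0.41 (SE), limma adjusted p = 0.999. The 95% interval ran from -1.72 to 0.052. Without control sheep 201 the log2 fold change was -0.52 and without control sheep 131 it was -1.10.

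AGT, the angiotensin precursor, followed a similar order in the controls. It had 15888 in sheep 98, 9536 in sheep 131, 8144 in sheep 179 and 18035 in sheep 201. In treated sheep it had 5849 (sheep 48), 7993 (sheep 63), 10318 (sheep 185), 8810 (sheep 233) and 9793 (sheep 255). As with ANGPTL4, control sheep 98 and 201 were above all treated sheep and the other controls were within their range. Controls averaged 12901 ± 4804 (SD, n = 4) and treated sheep 8553 ± 1757 (SD, n = 5), and the log2 fold change of -0.54 ± 0.30 (SE) had a limma adjusted p of 0.999 and a 95% interval from -1.20 to 0.12. Without control sheep 201 it was -0.35.

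GDF15, the stress hormone, rested on 11 to 29 reads per liver library. Its normalized read count was 9.05 in sheep 98, 16.5 in sheep 131, 9.12 in sheep 179 and 20.03 in sheep 201 among the controls. Treated sheep had 24.8 (sheep 48), 13.04 (sheep 63), 29.9 (sheep 185), 25.7 (sheep 233) and 14.1 (sheep 255). Treated sheep 48, 185 and 233 lay above all controls and the other treated sheep lay inside the control range. Averages of 13.7 ± 5.49 (SD, n = 4) for controls and 21.5 ± 7.50 (SD, n = 5) for treated sheep gave a log2 fold change of 0.62 ± 0.42 (SE), with a limma adjusted p of 0.999 and a 95% interval from -0.29 to 1.54. GFRAL, its receptor in the brain, had at most 2.23 in any liver library and was not tested.

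The fetuins differed in how much they varied between sheep. FETUB had 2597 (sheep 98), 3089 (sheep 131), 1313 (sheep 179) and 299 (sheep 201) in control liver, and 311 (sheep 48), 525 (sheep 63), 243 (sheep 185), 3803 (sheep 233) and 1147 (sheep 255) in treated liver. Both groups held high and low sheep, and the highest of all 9 was 15.6 times the lowest. Its residual SD of 1.57 on the log2 scale was above that of 98.4% of the genes tested, and the log2 fold change was -0.92 ± 0.82 (SE) with a limma adjusted p of 0.999 and a 95% interval from -2.71 to 0.87. The treated mean was 1206 with all sheep and 557 without sheep 233.

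AHSG, the fetuin that can inhibit the insulin receptor, had 21975 (sheep 98), 25081 (sheep 131), 58523 (sheep 179) and 28881 (sheep 201) in control liver. In treated liver it had 32575 (sheep 48), 24128 (sheep 63), 17027 (sheep 185), 29205 (sheep 233) and 75220 (sheep 255). 1 sheep in each group, control 179 and treated 255, stood well above the rest. Between groups the log2 fold change was 0.0045 ± 0.44 (SE), with a limma adjusted p of 0.999 and a 95% interval from -0.95 to 0.96, and its sign was negative without any 1 of sheep 98, 131, 201, 48 or 255 and with TMM rescaling. These sheep also had the highest summed level of the hepatocyte markers, 1740456 in sheep 179 and 2102288 in sheep 255, against 883133 to 1562964 in the other livers; the part of this in the AHSG values was not tested. AHSG and FETUB are adjacent protein-coding genes in the sheep gene table, next to HRG and KNG1, which encode further plasma proteins of the cystatin superfamily. Over the 9 livers they had a Pearson r of 0.17 (exact permutation p = 0.647) and a Spearman rho of 0.20 (exact permutation p = 0.613).

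LECT2, the chemotactic hepatokine, had 21436 (sheep 98), 48569 (sheep 131), 88841 (sheep 179) and 15123 (sheep 201) in control liver and 28276 (sheep 48), 34336 (sheep 63), 12026 (sheep 185), 27223 (sheep 233) and 40573 (sheep 255) in treated liver. The control sheep spread further than the treated sheep and surrounded all of them except sheep 185. The log2 fold change of -0.38 ± 0.52 (SE) had a limma adjusted p of 0.999 and a 95% interval from -1.51 to 0.75, and without control sheep 179 it was 0.077.

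RBP4, the retinol carrier, was the steadiest of the 8 across animals, with a residual SD of 0.33 on the log2 scale against a median of 0.52 over the genes tested. It had 17068 (sheep 98), 17802 (sheep 131), 11952 (sheep 179) and 23448 (sheep 201) in control liver. Treated liver had 13035 (sheep 48), 15741 (sheep 63), 16258 (sheep 185), 21352 (sheep 233) and 18440 (sheep 255). All treated sheep lay inside the control range. The log2 fold change was -0.029 ± 0.27 (SE), with a limma adjusted p of 0.999 and a 95% interval from -0.62 to 0.56, and its sign was positive without control sheep 201 or treated sheep 48.

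**Figure D2:**
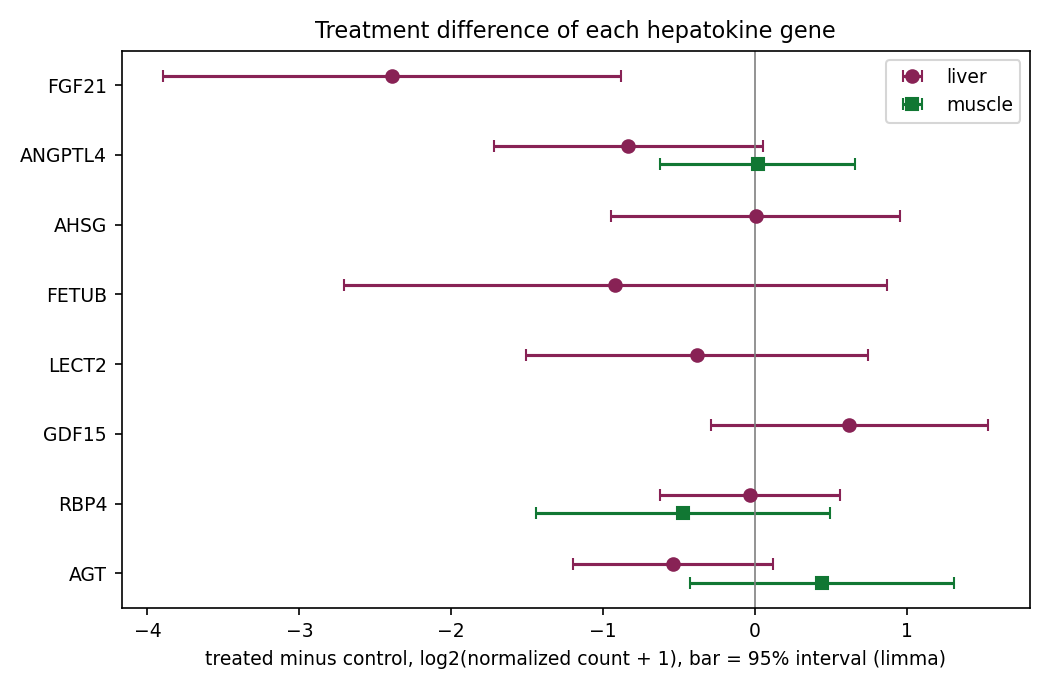
Treated minus control difference of each gene on the log2(normalized count + 1) scale, with the 95% interval from limma, in liver (circles) and, for the 3 genes past the filter there, in muscle (squares). The liver interval of FGF21, from -3.90 to -0.88, is the 1 interval that does not reach 0.

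The highest and lowest livers differed from gene to gene. Control sheep 201 had the highest ANGPTL4, RBP4 and AGT, control sheep 179 the highest FGF21 and LECT2, treated sheep 185 the lowest AHSG, FETUB and LECT2, and treated sheep 255 the lowest FGF21 and ANGPTL4 but the highest AHSG. Over the 28 pairs of members, with group differences left in, the largest Pearson r was that of ANGPTL4 with AGT, at 0.81 (exact permutation p = 0.0104, adjusted p = 0.290) and a Spearman rho of 0.55 (exact permutation p = 0.133, adjusted p = 0.531). Without sheep 201 and 98, which lay farthest from the ANGPTL4 median, r was 0.19, so that relation rested on those sheep. AHSG with LECT2 had an r of 0.67 (exact permutation p = 0.0484, adjusted p = 0.471) and a rho of 0.60 (exact permutation p = 0.0968, adjusted p = 0.531), with r at 0.43 without sheep 255 and 179. RBP4 with AGT had an r of 0.66 (exact permutation p = 0.0505, adjusted p = 0.471) and a rho of 0.65 (exact permutation p = 0.0666, adjusted p = 0.531). With group means removed, a description with no test, r was 0.72 for ANGPTL4 with AGT and 0.76 for RBP4 with AGT. It was -0.88 for ANGPTL4 with LECT2 and -0.78 for LECT2 with AGT, so the order of the pairs depended on the measure. No pair passed the adjustment.

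By profile over the 9 livers, the genes most like each member were chosen by the highest Pearson r of log2 values among 13639 others, so these coefficients describe a selection and carry no test. FGF21 was most like LOC114112852, a gene with no assigned symbol (r = 0.95, rho = 0.87), and PTPN18, a tyrosine phosphatase gene (r = 0.94, rho = 0.90). PTPN18 averaged 973 in controls and 518 in treated sheep. Group differences were left in, so a gene chosen for its likeness to FGF21 tends to share its direction, and these means carry no test. ANGPTL4 was most like TMEM185A (r = 0.98, rho = 0.97) and SLC9A3R1, a scaffold protein gene (r = 0.97, rho = 0.95). AHSG was most like TUBD1 (r = 0.97) and CRIM1 (r = 0.96), FETUB like WBP1L (r = 0.93) and LOC106991057 (r = 0.92), and LECT2 like NRIP1, a nuclear receptor corepressor gene (r = 0.97), and POSTN, the periostin gene (r = 0.97). GDF15 was most like UCK2 (r = 0.93) and EDEM1, a gene of endoplasmic reticulum protein disposal (r = 0.90). RBP4 was most like F2, the prothrombin gene (r = 0.96), and BCKDHA, of branched-chain amino acid breakdown (r = 0.95), and AGT like LOC101109993 (r = 0.98) and GPI, a glycolytic isomerase gene (r = 0.96). No member was among the closest genes of another member.

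In muscle 5 of the 8 genes were at or near 0 reads. To set tissues side by side, levels are given here in CPM, recovered reads scaled to the library's total, because the deposited values were scaled within each tissue. FGF21 and FETUB had 0 reads in all 10 muscle libraries, which allows up to 0.209 to 0.355 CPM depending on the library, counting error only. FGF21 had 1.43 to 66.8 CPM in liver, so even its lowest liver was at least 4.04-fold higher than the muscle limit, and the lowest FETUB liver was at least 61.3-fold higher. AHSG had 4 reads in all of muscle, in sheep 131 and 233, and LECT2 had 1 read, in sheep 48, against 1524 to 5523 CPM for AHSG and 1076 to 6676 for LECT2 in liver. GDF15 had 10 reads over 7 of 10 muscle libraries.

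**Figure D3:**
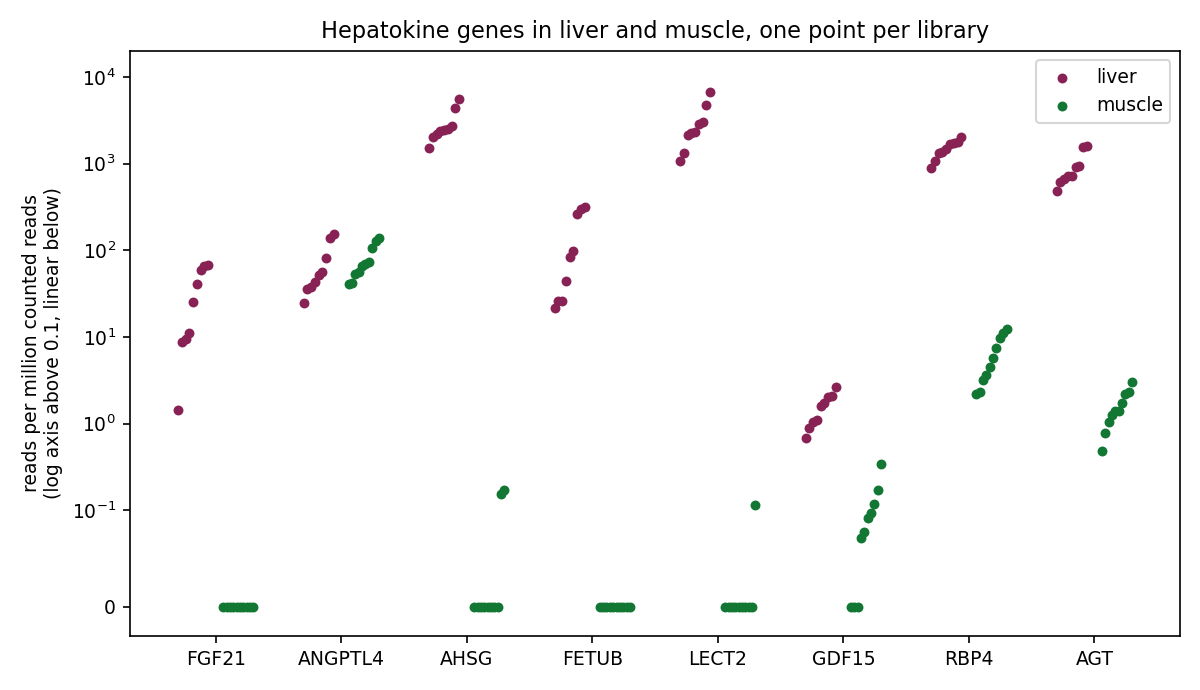
CPM of each gene in the 9 liver libraries (purple) and 10 muscle libraries (green), on an axis that is logarithmic above 0.1 and linear below it. ANGPTL4 is the 1 gene whose liver range (24.4 to 156) and muscle range (40.3 to 139) overlap.

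RBP4 and AGT were expressed in muscle at a low level. RBP4 had a median of 1455 CPM in liver and 5.09 in muscle, 286 times lower, and AGT 725 and 1.41, 514 times lower. ANGPTL4 had a median of 52.0 in liver and 67.3 in muscle. For 7 of the 8 genes liver stood above muscle without overlap, where 19.1% of 14909 genes did so. For GDF15 this rested on few reads, at least 11 per liver library (0.686 CPM) and at most 3 per muscle library (0.343 CPM). The 8 genes were chosen as hormones of the liver, so a higher level in liver is favoured by that choice.

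Between treated and control muscle, the 3 genes past the filter did not differ beyond the spread of the animals. On the deposited scale ANGPTL4 had 716 (sheep 98), 930 (sheep 131), 1184 (sheep 132), 504 (sheep 179) and 752 (sheep 201) in control muscle, and 1229 (sheep 48), 807 (sheep 63), 1302 (sheep 185), 441 (sheep 233) and 557 (sheep 255) in treated muscle. The groups covered nearly the same range, with a log2 difference of 0.018 ± 0.30 (SE), a limma adjusted p of 0.983 and a 95% interval from -0.62 to 0.66. The sign was negative without any 1 of sheep 98, 179, 48 or 185.

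RBP4 in muscle had 40.7 (sheep 98), 45.5 (sheep 131), 141 (sheep 132), 53.4 (sheep 179) and 113 (sheep 201) in controls and 67.0 (sheep 48), 26.7 (sheep 63), 113 (sheep 185), 62.2 (sheep 233) and 23.3 (sheep 255) in treated sheep. Treated sheep 63 and 255 lay below all controls, and the log2 fold change was -0.47 ± 0.45 (SE) with a limma adjusted p of 0.667. AGT in muscle had 15.9 (sheep 98), 9.74 (sheep 131), 5.50 (sheep 132), 27.9 (sheep 179) and 16.4 (sheep 201) in controls and 19.3 (sheep 48), 12.1 (sheep 63), 31.3 (sheep 185), 15.3 (sheep 233) and 18.4 (sheep 255) in treated sheep. These AGT values overlapped, on 5 to 43 reads per library, and the log2 difference was 0.44 ± 0.40 (SE), limma adjusted p = 0.652.

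Of the 3 genes 0 passed by limma or edgeR, where 0.00771% of the 12966 muscle genes did. DESeq2 passed 0 of ANGPTL4 and RBP4, where it passed 2.21% of genes, and gave AGT no adjusted p. At an unadjusted p under 0.05 the count was 0 of 3 by each tool, against 14.4% of muscle genes by limma, 14.2% by edgeR and 14.9% by DESeq2. In the same muscles all 8 tested adipocyte markers were below 0, 3 of them at an unadjusted p under 0.05, beside 7% of muscle genes lower at that p. Their summed normalized read count was 2970 to 4525 in control and 2190 to 3723 in treated sheep. All 10 skeletal muscle markers were below 0 and 0 had an unadjusted p under 0.05, with a summed count of 1835901 to 2142982 and 962268 to 1861261. The T and NK cell markers went the other way, with all 7 tested above 0. Of these 1 was higher at an unadjusted p under 0.05, beside 7.37% of muscle genes, with a summed count of 146 to 204 in control and 181 to 312 in treated sheep. The part of these markers in the muscle values of RBP4, ANGPTL4 and AGT was not tested. The groups overlapped for each of the 3 genes, where 3.29% of muscle genes had groups that did not overlap.

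The treatment difference in muscle minus that in liver was tested for the same 3 genes. Of them 0 passed by limma or edgeR, where 0.00855% of 11697 genes did by each, and 0 by DESeq2, where 0.174% did. AGT came closest, with a difference of 0.98 ± 0.47 (SE) on the log2 scale, an unadjusted p of 0.0509 and an adjusted p of 0.973. For AGT the unadjusted p was 0.0492 by edgeR and 0.0407 by DESeq2. An unadjusted p under 0.05 came up for 0 of the 3 genes by limma against 4.9% of all genes, for 1 by edgeR against 5.22% and for 1 by DESeq2 against 5.94%. With the sheep as a block the unadjusted p of AGT was 0.0462 and the limma adjusted p 0.809. ANGPTL4 had 0.85 ± 0.53 (SE) and RBP4 -0.44 ± 0.55 (SE), both with an adjusted p of 0.973. Over the 9 sheep that gave both tissues, 3 relations between the liver and the muscle level of a gene were computed and none passed. Group differences were left in, and the permutations ran over control and treated sheep together. The Pearson r was 0.24 for ANGPTL4 (exact permutation p = 0.537, adjusted p = 0.829; Spearman rho 0.30, exact permutation p = 0.437), 0.17 for RBP4 (exact permutation p = 0.655; rho 0.12, exact permutation p = 0.776) and -0.088 for AGT (exact permutation p = 0.829; rho 0.050, exact permutation p = 0.912). Without the sheep farthest from the liver median (201 and 98 for ANGPTL4 and AGT, 179 and 201 for RBP4) r was 0.54, 0.034 and -0.17 for ANGPTL4, AGT and RBP4.

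The genes that regulate FGF21 and are switched on with it in fasting were read from a list of PPARA, CREB3L3 and their target genes, 16 of which were tested in liver. None passed by limma, and 8 were lower and 0 higher in treated liver at an unadjusted p under 0.05, beside 2.17% lower and 1.82% higher over all genes. The median log2 fold change of the list was -0.58, with 14 of 16 below 0. Without control sheep 98 the count of 8 was 5, and without control sheep 179 it was 4, with the share of all genes in these runs not given here. Several of these genes were picked with results of these livers already known, so the list is no independent evidence of a direction.

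PPARA itself, the fatty acid receptor, averaged 1506 ± 386 (SD, n = 4) in controls and 1491 ± 461 (SD, n = 5) in treated sheep. CREB3L3, a hepatic transcription factor that acts with PPARA on the FGF21 gene, had 6725 (sheep 98), 5968 (sheep 131), 5436 (sheep 179) and 5240 (sheep 201) in controls and 3180 (sheep 48), 4715 (sheep 63), 3002 (sheep 185), 2522 (sheep 233) and 2470 (sheep 255) in treated sheep. The groups of CREB3L3 did not overlap, as for 0.682% of liver genes in that direction, sheep 63 was the highest treated sheep as it was for FGF21, and sheep 255 the lowest. Its log2 fold change was -0.91 ± 0.24 (SE), with an unadjusted p of 0.00275 and a limma adjusted p of 0.865.

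HADHA, of mitochondrial fatty acid oxidation, had a log2 difference of -1.01 ± 0.22 (SE), limma adjusted p = 0.835, and SLC25A20, the carnitine carrier, -0.90 ± 0.24 (SE), limma adjusted p = 0.865. Both were named for a small p in these same livers, a choice that favours groups that do not overlap. Their groups did not overlap, as for 0.682% of liver genes in that direction. HADHA had 3558 to 4552 in control and 1447 to 2254 in treated liver, and SLC25A20 had 929 to 1411 and 495 to 799. CPT1A, which admits fatty acids to mitochondria, had a log2 difference of -0.61 ± 0.27 (SE), and PDK4, a kinase that restrains glucose oxidation, -0.39 ± 0.38 (SE), both with a limma adjusted p of 0.999.

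**Figure D4:**
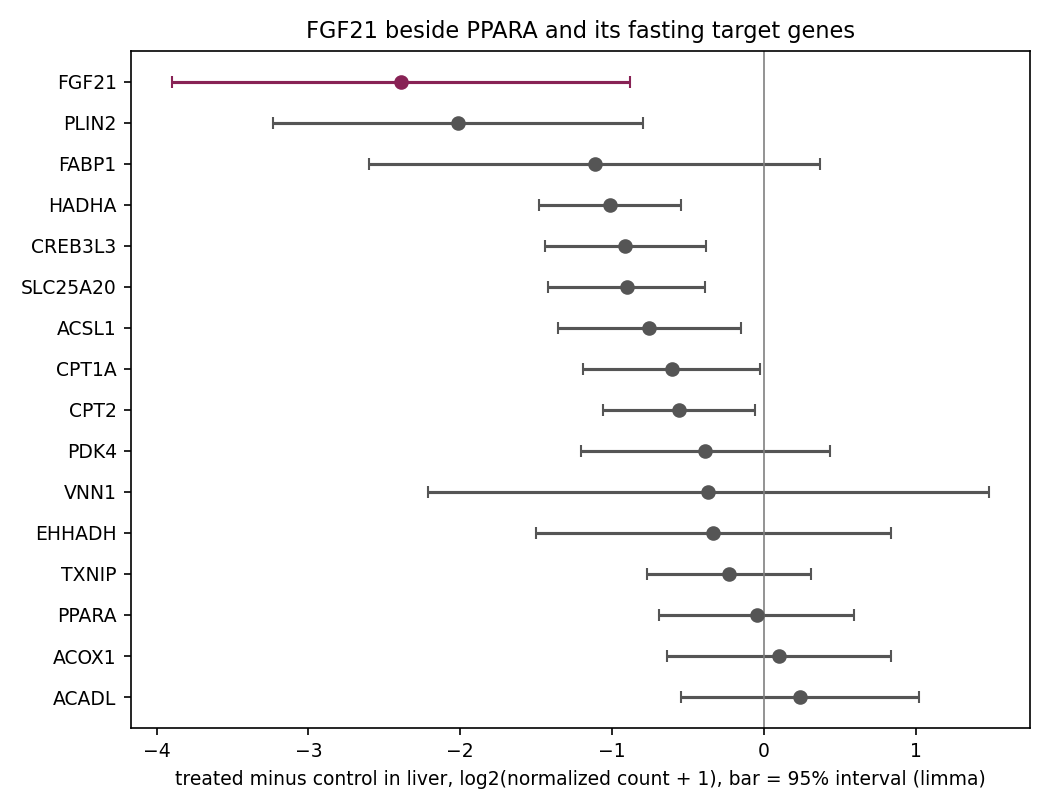
Treated minus control difference in liver on the log2(normalized count + 1) scale with 95% intervals from limma, for FGF21 (purple) and 15 of the 16 tested genes of the PPARA list (grey), in order of size. FGF21 at -2.39 lies beyond each gene drawn, an order that leaves out 1 tested gene not reported here, and PPARA lies at -0.048.

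Markers of other cell types were read in the same livers, since fat tissue also makes ANGPTL4. Of 5 tested adipocyte markers all 5 were below 0, 3 of them at an unadjusted p under 0.05, beside 2.17% of all liver genes lower at that p. The summed normalized read count of the 9 adipocyte markers was 232 to 536 in control and 120 to 314 in treated liver. ADIPOQ, a marker specific to fat, was at 0 in all control livers and had at most 1.18 in treated livers, and PLIN4 was at 0 in all livers. The summed count of 10 skeletal muscle markers was 58.8 to 161 in control and 27.1 to 49.5 in treated liver, ranges that did not overlap. In muscle that sum was at least 962268. Of these markers 3 were tested in liver and all 3 were below 0, with a median of -1.17 beside 0.0032 over all genes tested. Among the 3, 1 was lower at an unadjusted p under 0.05, beside 2.17% of all liver genes. The 8 tested T and NK cell markers were all above 0, with 2 higher at an unadjusted p under 0.05, beside 1.82% of all liver genes. Their summed count was 221 to 402 in control and 252 to 630.2 in treated liver. Of 7 macrophage, 7 endothelial, 8 stellate and fibroblast and 5 bile duct markers, 1 endothelial and 1 stellate marker had an unadjusted p under 0.05. Both were lower in treated liver, beside 2.17% of all liver genes lower and 1.82% higher. The part of these markers in the FGF21 and ANGPTL4 values was not tested, and in bulk tissue fewer cells of a type and less RNA per cell cannot be told apart.

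The other stimulus for FGF21 and GDF15 is the integrated stress response, of which 14 listed genes were tested in liver. None passed by limma, 1 was higher and 0 lower at an unadjusted p under 0.05 (1.82% and 2.17% of all liver genes), and the median log2 fold change was -0.13. The 1 gene was DDIT3, a stress transcription factor, with 73.0 to 146 in control and 163 to 268 in treated liver. These groups did not overlap, as for 0.858% of liver genes in that direction, and the log2 fold change was 0.88 ± 0.26 (SE) with a limma adjusted p of 0.865. ATF4, the factor upstream of DDIT3, had 3674 ± 819 (SD, n = 4) and 3454 ± 885 (SD, n = 5), a log2 fold change of -0.11 ± 0.27 (SE). PHGDH, of serine synthesis, had -0.50 ± 0.31 (SE) and EIF2AK3, a stress kinase, 0.35 ± 0.23 (SE), with a limma adjusted p of 0.999 each.

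Of 20 other tested hepatokine genes in liver 0 passed by limma, 3 were lower and 1 was higher at an unadjusted p under 0.05 (2.17% and 1.82% of all liver genes), with 11 of 20 above 0 and a median of 0.12. INHBE, a hepatic activin subunit, had 6377 (sheep 98), 6385 (sheep 131), 3869 (sheep 179) and 3301 (sheep 201) in control liver. In treated liver INHBE had 2171 (sheep 48), 4025 (sheep 63), 3116 (sheep 185), 1264 (sheep 233) and 595 (sheep 255). As for FGF21, 4 of 5 treated sheep lay below all controls and sheep 63 within their range, and the log2 fold change was -1.38 ± 0.49 (SE) with a limma adjusted p of 0.999.

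ANGPTL8, which acts with related proteins on lipoprotein lipase, had 257 to 864 in control and 34.3 to 305 in treated liver, with a log2 fold change of -1.37 ± 0.57 (SE). BMP6, a regulator of iron metabolism made mainly by liver endothelium, had 27.2 to 60.5 and 15.3 to 26.8, with -0.84 ± 0.34 (SE). The groups of BMP6 did not overlap, as for 0.682% of liver genes in that direction. It was named for a small p in these livers, a choice that favours such groups. FST, the follistatin gene, was the 1 higher gene, averaging 157 in controls and 250.1 in treated sheep, and was singled out after its value was seen. Each of these 3 had a limma adjusted p of 0.999.

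Acute phase genes were read because AHSG and RBP4 are made less in inflammation, and RBP4 is carried with TTR. The list held plasma protein genes and also signalling genes such as SOCS3, IL6R and STAT3. All 12 tested genes of this list were above 0 in liver, with a median of 0.32 beside 0.0032 over all genes tested. Of them 0 passed by limma and 0 had an unadjusted p under 0.05. ITIH4, a plasma protease inhibitor family member, had the smallest p, with a log2 fold change of 0.62 ± 0.49 (SE), followed by SOCS3, a feedback inhibitor of cytokine signalling, with 0.43 ± 0.36 (SE), and FGG, a fibrinogen chain, with 0.44 ± 0.40 (SE). TTR, the partner of RBP4, had 11017 ± 4643 (SD, n = 4) and 13642 ± 9392 (SD, n = 5), a log2 fold change of 0.0031 ± 0.61 (SE).

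Receptors and processing partners of the 8 hormones were described last, with 24 tested in liver and 19 in muscle. In liver 0 passed by limma, 1 was lower and 0 higher at an unadjusted p under 0.05 (2.17% and 1.82% of all liver genes), and the median was -0.012. That gene was LPL, the lipase that ANGPTL4 inhibits and itself an adipocyte marker, with 22.6 to 53.1 in control and 20.05 to 25.7 in treated liver. GPIHBP1, which anchors the lipase to capillaries, had a log2 difference of -0.12 ± 0.46 (SE) and AGTR1, the angiotensin receptor, 0.48 ± 0.31 (SE). LRAT, which esterifies retinol, had 0.49 ± 0.31 (SE). KLB had 249 to 355 in control and 123 to 733 in treated liver. STRA6, the RBP4 receptor, had at most 2.23 in any liver library and was not tested.

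In muscle 0 receptors passed by limma, and 1 was lower and 2 were higher at an unadjusted p under 0.05, beside 7% and 7.37% of all muscle genes. FGFR4, the main FGF receptor of hepatocytes, had the smallest p and was 1 of the 2 higher genes. Its muscle values were 5.95 (sheep 98), 9.74 (sheep 131), 3.30 (sheep 132), 9.29 (sheep 179) and 13.7 (sheep 201) in controls and 16.2 (sheep 48), 24.3 (sheep 63), 19.6 (sheep 185), 34.9 (sheep 233) and 30.1 (sheep 255) in treated sheep. The groups did not overlap, as for 1.76% of muscle genes in that direction, on 3 to 41 reads per library. Controls averaged 8.39 and treated sheep 25.03. FGFR4 thus passed the filter, a mean of at least 10, only through the group where it was high. Its test, its lack of overlap and its place in the count of higher genes are given as values that support nothing. For FGFR4 the log2 fold change was 1.54 ± 0.37 (SE), with a limma adjusted p of 0.148. In liver it was -0.58 ± 0.35 (SE).

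TEK, an angiopoietin receptor, was the 1 lower gene, averaging 268 in control and 204 in treated muscle, and was singled out after its values were seen. FGFR1, the FGF21 receptor partner of KLB, averaged 430 ± 66.0 (SD, n = 5) in control muscle and 505 ± 109 (SD, n = 5) in treated muscle, while KLB had at most 5.50 in any muscle library and was not tested. LPL had 1170 ± 601 (SD, n = 5) and 1175 ± 536 (SD, n = 5). AGTR1 had 119 ± 22.7 (SD, n = 5) and 96.5 ± 14.1 (SD, n = 5), with a limma adjusted p of 0.473. In muscle the lists of PPARA targets (13 tested), stress response genes (11) and other hepatokines (11) had 0 genes at an unadjusted p under 0.05. Of 5 tested genes of the acute phase list 2 were lower and 1 was higher at that p, beside 7% and 7.37% of all muscle genes. The higher gene was ITIH4, with means of 650 and 1021. The lower genes were IL6R, the interleukin-6 receptor gene (1372 and 948), and STAT3, its signalling factor (1156 and 813), both singled out after their values were seen.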

How the data were processed

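Liver and muscle RNA-seq libraries of single sheep were analysed. The authors deposited a signal per gene and library, a read count scaled by a size factor. Trimmomatic, STAR and featureCounts 1.6.1 are named in the submitters' processing notes; genome build, annotation, strand setting and normalization tool are not given in the sources used here, so antisense or overlapping genes may share reads. Every value was a whole multiple of 1 step per library (tolerance 0.01 read), so reads were recovered. Median-of-ratios factors within each tissue matched the deposited scaling to a relative deviation of 1.7e-10.

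Liver and muscle were fitted separately with limma 3.58.1 in R 4.3.3 (pseudocount 1, mean of at least 10, mean-variance trend, Benjamini-Hochberg threshold 0.05). Fold changes on this scale understate the change of low genes. The difference between tissues was an interaction over all 19 libraries. Alternatives were edgeR 4.0.16 and DESeq2 1.42.0 on recovered reads, other pseudocounts and filters, TMM rescaling, array weights, 1 fit of all libraries, a sheep block and each sheep left out. The procedure was tested on simulated counts.

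Sheep numbers pair the tissues because each number is 1 animal: deviations from group means correlated at a median of 0.177 within a sheep and -0.0194 between sheep. The members and gene lists were chosen with earlier results of these data known. Named genes were the members, the 2 genes most like each in liver, the 3 with the smallest liver p per list, any listed gene past the threshold, and fixed partner genes. Names and neighbours came from an NCBI gene table of sheep assembly ARS-UI_Ramb_v3.0, which matched 8 of 8 members and 22250 identifiers. Intervals and read limits cover counting error or the spread between these animals only. Some genes that the naming rule selects, or that listed counts include, are not reported here by name.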

Additional observations from a re-analysis of the deposited data

Results flagged for a closer look

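In treated liver, 1 sheep stood apart from the other 4 for each of 3 genes, by a gap over 0.71 of the group's range. Normally distributed values pass this limit for groups of 5 in about 1 of 20 groups. Its rate for normalized read counts, on which these gaps were taken, was not tested. In all, 22 groups were checked. FGF21 was 488 in treated sheep 63 and 19.5 to 134 in the others, a gap of 0.756 of the range. AHSG was 75220 in treated sheep 255 and 17027 to 32575 in the others, a gap of 0.733. FETUB was 3803 in treated sheep 233 and 243 to 1147 in the others, a gap of 0.746. In control liver, sheep 179 had an AHSG gap of 0.811, which did not pass the higher limit for groups of 4. These gaps are on the normalized read count. On the log2 scale of the tests they were 0.41 for FGF21, 0.56 for AHSG and 0.44 for FETUB in treated liver, and no group of the 22 passed its limit there.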

How the results depend on the processing

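Of the members, 0 passed in liver, muscle or the difference between tissues under each alternative run, and FGF21 kept a negative liver difference in all 18 alternatives, with adjusted p from 0.124 to 0.9998. The number of all genes passing moved. In liver it was 1, and 32 by DESeq2, 0 with a mean of at least 50, 2 with array weights and 9 in 1 fit of all libraries. In muscle it was 1, and 259 by DESeq2, 0 with pseudocount 0.25 or a mean of at least 50, and 0 to 4 without 1 sheep. For the difference between tissues it was 1, and 14 by DESeq2, 0 with pseudocount 4 or no filter, 3 with array weights, and 0 to 1 without 1 sheep. With the sheep as a replicate block it was 1, and 1 of the 3 members, AGT at 0.95 (unadjusted p = 0.0462 by limma), was under an unadjusted p of 0.05 against 0 without the block; the block changed no other call. Over 264 values of single genes and of the PPARA list median, 13 changed sign: AHSG in liver was -0.017 with TMM rescaling and -0.31 to 0.31 without 1 sheep, LECT2 in liver -0.77 to 0.077, RBP4 in liver -0.20 to 0.12 and ANGPTL4 in muscle -0.16 to 0.23. Leaving out 1 sheep moved the PPARA list count of 8 to between 4 and 9, an alternative chosen after seeing the data. The cause of these shifts was not tested. GDF15 in liver and AGT in muscle rest on few reads, which limits both.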
